A study of Mus musculus with 27 samples.

Results

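Members of the tumour necrosis factor (TNF) superfamily and of the TNF receptor superfamily were followed in activated macrophages through 8 genes chosen by symbol. They were the ligand genes Tnf, Tnfsf9, Tnfsf10, Tnfsf12 and Tnfsf14 and the receptor genes Tnfrsf1a, Tnfrsf1b and Fas, 8 of the 45070 genes in the table. The cells were wild type mouse bone marrow-derived macrophages (BMDMs), primary cells grown from marrow that the study took from young adult male C57BL/6 mice. By the study's methods, which do not describe controls separately, the cells stood for 1 h in DMSO, the solvent of kinase inhibitors tested elsewhere. They were then left untreated or received lipopolysaccharide (LPS) or interleukin-4 (IL-4) at 10 ng/ml for 0.5 h, 1 h, 2 h or 4 h, which gave 9 groups of 3 replicates and 27 samples. RNA bound to chromatin was sequenced, a fraction rich in transcripts that are still being made. The study used these time courses to find kinases whose genes respond to either stimulus. Here they show when the TNF ligand and receptor genes respond.

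TNF superfamily ligands are trimeric proteins displayed at the cell surface, several of which are shed by proteases. They cluster receptors whose tails recruit either TRAF adaptors, which switch on NF-κB and MAP kinases, or death domain proteins, which can start apoptosis or necroptosis. In macrophages, LPS acts through TLR4 and is a classical trigger of Tnf, whose promoter is bound by NF-κB. IL-4 acts through STAT6 and drives what is called alternative activation. Among the receptors, Tnfrsf1a and Tnfrsf1b bind TNF, only the former having a death domain, and Fas is the death receptor for Fas ligand.

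The 250 bases before the annotated start of 4 of these genes are printed because the genes followed different courses after LPS. Tnf was highest at the first time point, Fas at 1 h and Tnfrsf1b at the last, while Tnfsf10 rose only from 2 h. The sequences are from RefSeq on GRCm38.p6 and run 5′ to 3′ on the strand of the gene, ending at the base before its start. They lie at chr17:35202008-35202257 (minus strand) for Tnf, chr19:34290409-34290658 (plus strand) for Fas, chr4:145246871-145247120 (minus strand) for Tnfrsf1b and chr3:27316827-27317076 (plus strand) for Tnfsf10. Capitals mark matches, on either strand, to any of 6 motifs.
Tnf: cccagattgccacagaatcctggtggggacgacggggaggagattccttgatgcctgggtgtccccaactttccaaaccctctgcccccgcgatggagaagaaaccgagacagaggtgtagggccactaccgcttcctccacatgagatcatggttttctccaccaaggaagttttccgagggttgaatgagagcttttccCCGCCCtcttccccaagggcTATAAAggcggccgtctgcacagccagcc
Fas: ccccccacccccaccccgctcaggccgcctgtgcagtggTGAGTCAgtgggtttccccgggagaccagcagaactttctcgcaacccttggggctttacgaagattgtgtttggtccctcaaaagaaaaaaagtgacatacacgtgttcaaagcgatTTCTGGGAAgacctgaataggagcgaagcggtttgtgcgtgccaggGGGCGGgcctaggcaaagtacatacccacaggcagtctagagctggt
Tnfrsf1b: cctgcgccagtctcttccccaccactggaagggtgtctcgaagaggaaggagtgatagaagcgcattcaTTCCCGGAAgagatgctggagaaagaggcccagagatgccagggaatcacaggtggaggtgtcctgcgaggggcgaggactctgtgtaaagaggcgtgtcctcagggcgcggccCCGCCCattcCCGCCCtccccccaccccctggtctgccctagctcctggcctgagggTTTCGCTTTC
Tnfsf10: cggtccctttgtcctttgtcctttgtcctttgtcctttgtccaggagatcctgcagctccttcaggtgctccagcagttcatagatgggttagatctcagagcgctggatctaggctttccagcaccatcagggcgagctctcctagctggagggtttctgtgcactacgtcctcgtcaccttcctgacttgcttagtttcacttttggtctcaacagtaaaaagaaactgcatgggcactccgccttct
The motifs searched were the κB motif and the interferon-stimulated response element (ISRE), both by their usual consensus, the AP-1 site TGANTCA, the STAT-binding GAS element TTCNNNGAA, the GC box GGGCGG and the TATA box TATAAA. Tnf had TATAAA from 29 to 24 bases before the start and a GC box from 49 to 44. Fas had an AP-1 match from 211 to 205 bases upstream, a GAS match from 93 to 85 and a GC box from 47 to 42. In Tnfrsf1b an ISRE match took up the last 10 bases, read on the other strand, with GC boxes from 67 to 62 and from 57 to 52 and a GAS match from 181 to 173. No motif overlapped another. These letters held no match in Tnfsf10, and no κB match was in the window of any of the 6 members with an entry (these 4, Tnfrsf1a and Tnfsf14). Over the same length, 5% of all 32851 promoters held a κB match, 5.09% an ISRE, 6.75% an AP-1 site, 7.02% a GAS element, 32.7% a GC box and 12.4% a TATA box. A match describes letters and not binding. Tnfsf9 and Tnfsf12 were not in the sequence table.

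The deposited values are normalised read counts per gene that the authors scaled and rounded. They summed to between 2469768 and 2790981 in untreated and IL-4 samples and to between 3571492 and 4058199 in LPS samples. Scaled values do not give the sequencing depth, so no counting interval could be put on them. Of 8 macrophage markers, summed to 10027 or more in every sample, none was at 0. T cell, B cell and NK cell markers summed to at most 8 in any sample, with Cd3e and Cd3g at 0 throughout. The 3 dendritic cell markers summed to 2 to 6 in untreated samples, 5 to 96 after LPS and 10 to 22 after IL-4, with Zbtb46 at 43 to 90 at 1 h of LPS and Xcr1 at 0 throughout. The 5 neutrophil and granulocyte markers summed to 2 to 8, 2 to 63 and 3 to 31, mostly from Ltf, which was highest in replicate 1 in all 9 groups, with Ly6g at 0 throughout. Replicate 1 had the highest sum of the stromal genes Col1a1 and Col1a2 in all 9 groups, at 88 to 206 against 27 to 70 in replicate 2 and 28 to 46 in replicate 3. The part of these markers in the results was not tested. In bulk samples, fewer cells of a type and less RNA per cell cannot be told apart. Changes were tested on log2(value + 1) with limma, Benjamini-Hochberg adjusted over 13901 tested genes at a threshold of 0.05, and a log2 fold change (log2FC) on this scale comes out too small where values are low. The labels do not say that replicates were separate cultures, so the p-values measure a spread that may be technical.

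Most tested genes moved over the LPS course and the members did too, while fewer of either moved over the IL-4 course. The F test over the LPS course passed for all 8 genes, but it also passed for 87.6% of the tested genes, so the count by itself says little about them. Over the IL-4 course it passed for 2 of 8 (Tnfsf9 and Tnfrsf1b), where 40.3% of tested genes passed, and with 8 genes this count says little either. At each LPS time, 6 of the 8 were higher than in untreated cells and 1, Tnfsf12, was lower. Genome-wide, 19.6%, 24.8%, 26.9% and 25.9% of tested genes were called higher at these times in order, and 34.4%, 39%, 39% and 37.6% lower. The 6 were not always the same genes, since Tnfsf14 was among them at 0.5 and 1 h and Tnfsf10 at 2 and 4 h. Tnf, Tnfsf9, Tnfsf10 and Tnfsf14 reached the minimum of 10 in 3 samples only through LPS samples, so these 4 had to be higher there once they were tested, and no median over the 8 genes is given for LPS. The genome-wide split depended on the scaling. At 0.5 h of LPS 2718 genes were called higher and 4775 lower, against 1621 and 7255 with samples scaled to equal sums and 3536 and 3807 with median-of-ratios scaling. At 4 h the numbers were 3595 and 5233, against 2426 and 7808 and against 4292 and 4421. The median log2FC of all tested genes at 0.5 h was -0.24 as deposited, -0.73 with equal sums and -0.01 with median-of-ratios scaling. Under these 2 scalings 6 to 8 of the 8 members were called at each LPS time.

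After IL-4 the picture was smaller in both number and size. At 0.5 h, 1 member was called higher (Tnfsf14, where 8.15% of tested genes were) and 1 lower (Tnfrsf1b, 8.14%). At 1 h and 2 h 2 members, Tnfsf9 and Tnfrsf1b, were lower, where 9.83% and 13.2% of tested genes were. At 4 h Tnfsf9 alone was lower, against 12.5%. The medians of the 8 genes were -0.40, -0.22, -0.36 and -0.32, and those of all tested genes lay between -0.02 and 0.02. Tnf, Tnfsf9, Tnfsf10 and Tnfsf14 reached the filter only through LPS samples and held at most 12 in any IL-4 sample. The medians of the 8 thus rest in part on very low values. Both courses were set against the same 3 untreated samples.

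**Figure D1:**
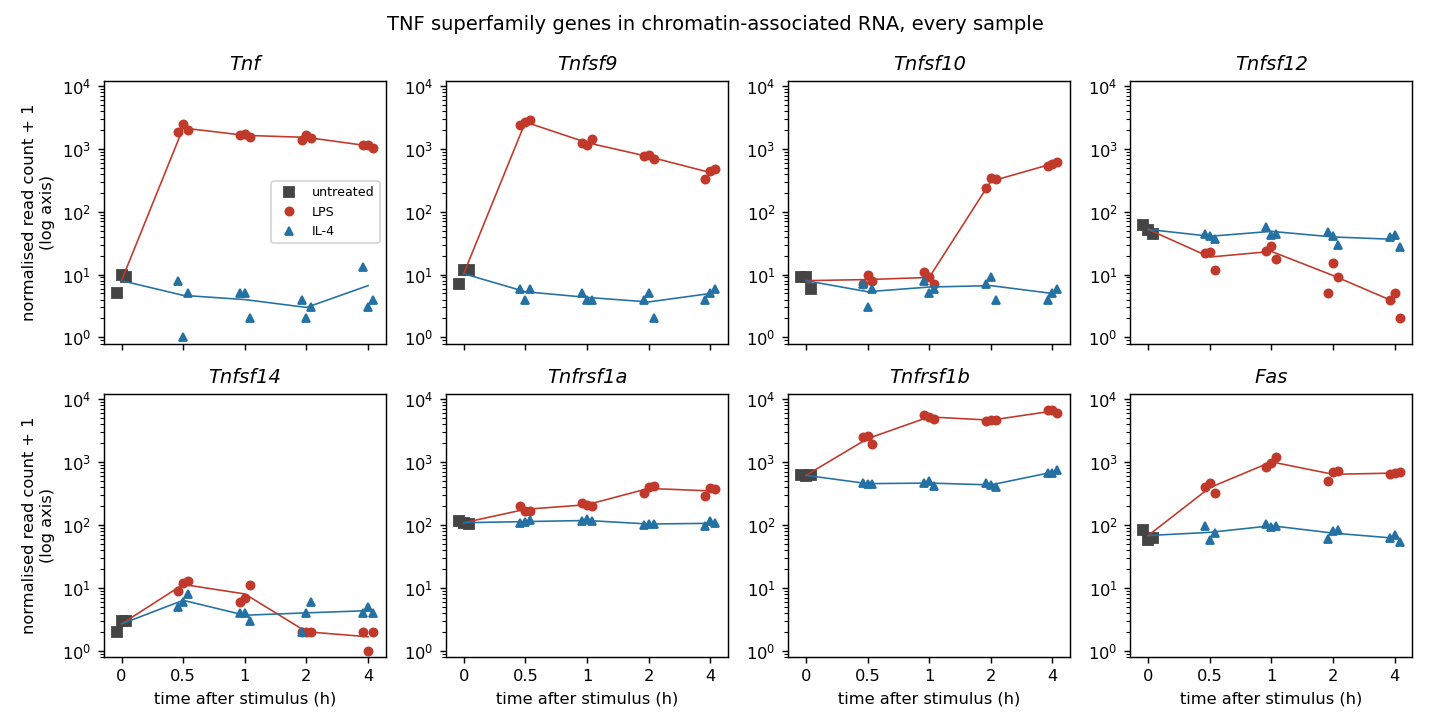
Normalised read count plus 1 (log axis) of the 8 genes in every sample against time after stimulus in h, with untreated samples as grey squares, LPS samples as red circles and IL-4 samples as blue triangles, and lines through the group means. Tnf and Tnfsf9 stand above 1000 in all LPS samples at 0.5 h, Tnfsf10 leaves its starting level between 1 and 2 h, and the IL-4 samples of Tnfrsf1b dip below the untreated ones at 0.5 to 2 h.

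**Figure D2:**
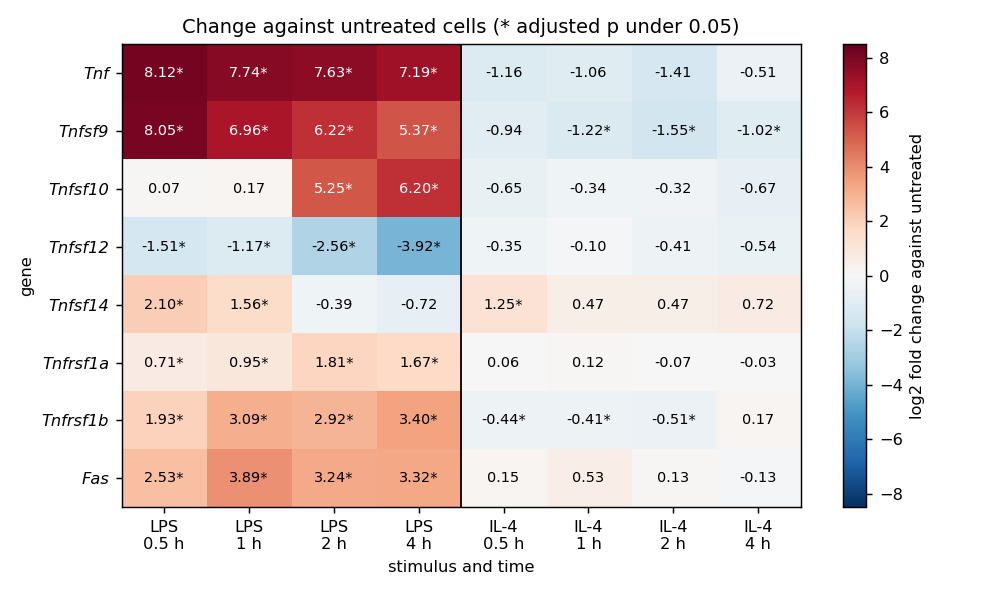
Log2 fold change of each gene (rows) against untreated cells at each time after LPS and IL-4 (columns), with colour and printed value showing the same quantity and a star marking an adjusted p under 0.05. The values run from 8.12 for Tnf at 0.5 h of LPS to -3.92 for Tnfsf12 at 4 h of LPS, and those after IL-4 stay between -1.55 and 1.25.

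Tnf encodes the founding ligand, a cytokine central to inflammation. It lies at chr17:35199367-35202007 on the minus strand (GRCm38, as are all coordinates here), and no annotated gene overlaps it. Untreated cells held 4, 9 and 8 normalised read counts. After LPS the 3 samples held 1881, 2527 and 2027 at 0.5 h and 1685, 1697 and 1538 at 1 h. They held 1405, 1651 and 1508 at 2 h and 1155, 1166 and 1029 at 4 h. The LPS samples of each time thus stood far apart from the untreated ones. Tnf was already at its highest at 0.5 h, with a log2FC of 8.12 ± 0.20 (SE, adjusted p = 9.11e-14 in limma, higher in 3 of 3 samples), and still stood at 7.19 ± 0.20 at 4 h (adjusted p = 2.08e-13). The mean at 4 h was 52.1% of that at 0.5 h. All 3 samples at 4 h lay below all 3 at 2 h, but none of the falls from one time to the next passed in limma (adjusted p = 0.129, 0.702 and 0.127). The first and the last fall did pass without replicate 1, at log2FC -0.49 and -0.53 (adjusted p = 0.00312 and 0.00351). Both also passed with a replicate block in the fit, as given in the last section.

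With IL-4, Tnf had 7, 0 and 4 normalised read counts at 0.5 h, then 4, 4 and 1 at 1 h. It had 3, 1 and 2 at 2 h, then 12, 2 and 3 at 4 h. The values at 2 h lay below all untreated ones, those at the other times overlapped them, and no time passed the test (adjusted p between 0.174 and 0.669). The direct comparison of the stimuli gave an LPS mean 585 times the IL-4 mean at 0.5 h and 197 times at 4 h. At 2 h, where all IL-4 samples were at or under 3 normalised read counts, it was at least 507-fold higher. The neighbouring lymphotoxin genes Lta and Ltb, which lie 1157 and 3061 bases from Tnf and encode ligands of the same family, held at most 3 in any sample.

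Tnfsf9 encodes 4-1BBL, the ligand of the costimulatory receptor 4-1BB. The gene lies at chr17:57105385-57107757 on the plus strand. Its untreated values were 6, 11 and 11. At 0.5 h of LPS it held 2418, 2722 and 2870, and at 1 h 1223, 1133 and 1410. It then held 758, 809 and 685 at 2 h and 327, 450 and 479 at 4 h. No 2 of these 5 groups overlapped, and after the first time point the values only fell. The log2FC was 8.05 ± 0.19 at 0.5 h (adjusted p = 9.11e-14) and 5.37 ± 0.19 at 4 h (adjusted p = 2.82e-12). Each later step down passed, by log2FC -1.09, -0.74 and -0.86 (adjusted p = 0.000261, 0.00568 and 0.00473), so that the mean at 4 h was 15.7% of that at 0.5 h. The step from 1 to 2 h was lost without replicate 3 (adjusted p = 0.116) and that from 2 to 4 h without replicate 2 (0.0872). A non-coding gene on the other strand, Gm11110, shares 558 bases with Tnfsf9, 23.5% of its span. It rose from a mean of 25.7 to 1297 at 0.5 h of LPS, and since the counting is not stated to have used strand, reads of the pair cannot be told apart.

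IL-4 had the opposite direction on Tnfsf9, at very low values. It held 5, 3 and 5 at 0.5 h, then 4, 3 and 3 at 1 h. With 3, 4 and 1 at 2 h, then 3, 4 and 5 at 4 h, every IL-4 sample lay below the lowest untreated one. The log2FC passed at 1 h (-1.22 ± 0.35, adjusted p = 0.0228), 2 h (-1.55 ± 0.35, 0.00426) and 4 h (-1.02 ± 0.35, 0.0453) and not at 0.5 h (-0.94 ± 0.35, 0.0915). These calls were fragile. The one at 4 h was lost without any 1 of the replicates (adjusted p between 0.0695 and 0.239), the one at 1 h without replicate 2 or 3 (0.22 and 0.162) and the one at 2 h without replicate 3 (0.134).

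The timing of Tnf and Tnfsf9 differed after the shared early peak. Within a sample, the ratio of Tnf to Tnfsf9 normalised read counts was 0.804 ± 0.113 (SD, n = 3) at 0.5 h of LPS, 1.32 ± 0.209 at 1 h, 2.03 ± 0.174 at 2 h and 2.76 ± 0.707 at 4 h. The samples of each time lay above all those of the time before, except between 2 and 4 h, where 1.85 to 2.20 overlapped 2.15 to 3.53. In untreated cells the ratio was 0.737 ± 0.0763. Per kb of cDNA the ratio went from 0.598 to 2.05 over the same times, with cDNA lengths of 1653 and 1230 bases. Since reads of Tnfsf9 and Gm11110 cannot be told apart, the size of these ratios is uncertain.

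Tnfsf10 encodes TRAIL, a ligand that can trigger death receptors and that is widely known as an interferon-induced gene. It spans chr3:27317077-27339665 on the plus strand and overlaps no other gene. Untreated cells held 8, 8 and 5. For the first hour LPS left this as it was within the spread, with 6, 9 and 7 at 0.5 h and 10, 8 and 6 at 1 h (log2FC 0.07 ± 0.24 and 0.17 ± 0.24, adjusted p = 0.83 and 0.549). It then held 235, 347 and 328 at 2 h and 538, 576 and 624 at 4 h, with no overlap between the 2 times or with any earlier one. The log2FC was 5.25 ± 0.24 at 2 h (adjusted p = 3.93e-11) and 6.20 ± 0.24 at 4 h (5.9e-12). Of the steps, that from 1 to 2 h was 5.08 (adjusted p = 3.66e-10). The one from 2 to 4 h was 0.95 (0.00935), and it was lost without replicate 2 (0.0876) or 3 (0.0886). IL-4 samples ranged from 2 to 8, overlapping the untreated ones except at 4 h, where 3, 4 and 5 touched their lowest value, and passed at no time (adjusted p between 0.222 and 0.604).

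Tnfsf12 encodes TWEAK, the ligand of the receptor Fn14. It was the one member called lower after LPS, although with samples scaled to equal sums Tnfsf14 was too at 4 h (-1.01, adjusted p = 0.0182). The gene lies at chr11:69686240-69696098 on the minus strand, wholly inside the readthrough gene Tnfsfm13 on the same strand, and 49.7% of it lies under Tnfsf13os on the other strand, so its values are uncertain. Untreated cells held 61, 50 and 43. LPS samples held 21, 22 and 11 at 0.5 h, then 23, 27 and 17 at 1 h. They held 4, 14 and 8 at 2 h, then 3, 4 and 1 at 4 h. All of these lay below the lowest untreated value. The log2FC was -1.51 ± 0.43 at 0.5 h (adjusted p = 0.00743), -1.17 ± 0.43 at 1 h (0.0248), -2.56 ± 0.43 at 2 h (7.59e-05) and -3.92 ± 0.43 at 4 h (8.8e-07). The call at 1 h was lost when any 1 replicate was left out (adjusted p between 0.0546 and 0.0884) or with median-of-ratios scaling (-0.92, 0.0683), and that at 0.5 h without replicate 3 (0.0605). Tnfsfm13 and Tnfsf13os, which overlap it and may share its reads, fell as well, from means of 98.7 and 76.3 to 4.33 each at 4 h. With IL-4 Tnfsf12 ranged from 26 to 57 and passed at no time (adjusted p between 0.0889 and 0.805), although all 3 samples at 0.5 h (43, 40 and 36) and at 4 h (39, 41 and 26) lay at or below the lowest untreated one. With a replicate block in the fit Tnfsf12 was called lower at 2 h and 4 h of IL-4, as given in the last section.

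Tnfsf14 encodes LIGHT, a ligand of HVEM and of the lymphotoxin β receptor. It lies at chr17:57189474-57194181 on the minus strand, 81716 bases from Tnfsf9, with Cd70 (at most 5 in any sample) between them. Tnfsf14 held 1, 2 and 2 in untreated cells. It held 8, 11 and 12 at 0.5 h of LPS and 5, 6 and 10 at 1 h, then 1, 1 and 1 at 2 h and 1, 0 and 1 at 4 h. The brief rise passed at 0.5 h (log2FC 2.1 ± 0.37, adjusted p = 0.000233) and 1 h (1.56 ± 0.37, 0.00192). Against a floor of 3 normalised read counts per library these means were at least 3.44-fold and 2.33-fold higher. The step down from 1 to 2 h passed too (log2FC -1.95, adjusted p = 0.000513), while the values at 2 and 4 h did not pass against untreated (0.372 and 0.103).

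IL-4 gave Tnfsf14 4, 5 and 7 normalised read counts at 0.5 h, above all untreated samples (log2FC 1.25 ± 0.36, adjusted p = 0.0291, at least 1.78-fold higher). The call was lost without replicate 2 (0.222) or 3 (0.169). Later IL-4 values were 3, 3 and 2 at 1 h, then 1, 3 and 5 at 2 h, then 3, 4 and 3 at 4 h, of which none passed (adjusted p between 0.172 and 0.417). LPS exceeded IL-4 at 1 h (log2 difference 1.09, adjusted p = 0.0132) and lay below it at 4 h (-1.44, 0.0015). The former was lost without replicate 2 or 3 (0.063 and 0.238) and the latter without replicate 2 (0.118). At these values a change of a few normalised read counts decides a call.

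**Figure D3:**
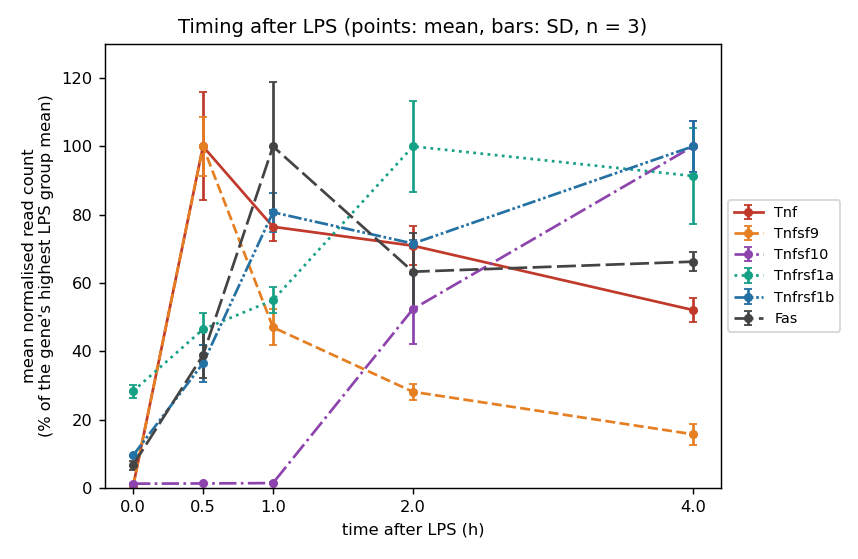
Mean normalised read count over time after LPS in h for Tnf, Tnfsf9, Tnfsf10, Tnfrsf1a, Tnfrsf1b and Fas as a percentage of each gene's highest LPS group mean, with bars for the SD (n = 3). Tnf and Tnfsf9 peak at 0.5 h and end at 52.1% and 15.7%, Fas peaks at 1 h, Tnfrsf1a at 2 h, and Tnfsf10 and Tnfrsf1b are highest at 4 h.

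Tnfrsf1a encodes TNFR1, the widely expressed TNF receptor with a death domain. The gene lies at chr6:125349723-125362483 on the plus strand and overlaps no other gene. It held 116, 105 and 102 in untreated cells. LPS samples held 197, 168 and 165 at 0.5 h, then 226, 204 and 198 at 1 h. They held 324, 397 and 421 at 2 h, then 287, 389 and 367 at 4 h, all above the untreated ones. The rise was moderate and gradual, with a log2FC of 0.71 ± 0.14 at 0.5 h (adjusted p = 0.000641), 0.95 ± 0.14 at 1 h (3.1e-05), 1.81 ± 0.14 at 2 h (2.12e-08) and 1.67 ± 0.14 at 4 h (5.21e-08). Scaled to equal sums, the value at 0.5 h was 0.20 and was not called (adjusted p = 0.238). Of the steps, only that from 1 to 2 h passed (log2FC 0.85, adjusted p = 0.000146), and the samples at 2 and 4 h overlapped. IL-4 samples ranged from 94 to 123 over all 4 times, with a log2FC between -0.07 and 0.12 (SE 0.09, adjusted p between 0.434 and 0.839).

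Tnfrsf1b encodes TNFR2, the TNF receptor that lacks a death domain and binds TRAF2. It lies at chr4:145212368-145246870 on the minus strand and overlaps no other gene. Untreated cells held 631, 600 and 615. LPS raised it to 2541, 2607 and 1959 at 0.5 h and to 5641, 5186 and 4914 at 1 h. At 2 h it held 4570, 4720 and 4666, and at 4 h 6700, 6851 and 5954. No LPS sample came near an untreated one. The log2FC was 1.93 ± 0.11 at 0.5 h (adjusted p = 1.95e-09), 3.09 ± 0.11 at 1 h (5.6e-12), 2.92 ± 0.11 at 2 h (6.25e-12) and 3.40 ± 0.11 at 4 h (1.3e-12). The first step was a rise of 1.16 (adjusted p = 8.38e-07). The samples at 2 h all lay below those at 1 h, without passing the test (-0.17, 0.247), and those at 4 h were higher again (0.48, 0.00608), a call lost without replicate 2 (0.151).

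IL-4 lowered Tnfrsf1b for the first 2 h. It held 465, 444 and 453 at 0.5 h, then 470, 504 and 417 at 1 h, then 464, 436 and 401 at 2 h, all below the lowest untreated value of 600. The log2FC was -0.44 ± 0.08 at 0.5 h (adjusted p = 0.00163), -0.41 ± 0.08 at 1 h (0.00193) and -0.51 ± 0.08 at 2 h (0.000302). The call at 0.5 h was lost without replicate 2 (0.0657) and that at 1 h without replicate 3 (0.0587). At 4 h the samples held 677, 660 and 737, above all untreated ones but not passing the test (0.17 ± 0.08, 0.154). The step from 2 to 4 h was a rise of 0.67 (adjusted p = 0.000305), where 2.4% of tested genes rose, and it was lost without replicate 2 (0.0728) or 3 (0.0696).

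Within each sample, Tnfrsf1b and Tnfrsf1a changed in unequal measure. The ratio of their normalised read counts was 5.73 ± 0.295 (SD, n = 3) in untreated cells. After LPS it came to 13.4 ± 1.88 at 0.5 h, then to 25.1 ± 0.315 at 1 h. It was 12.4 ± 1.56 at 2 h, then 19.1 ± 3.78 at 4 h, and every LPS sample lay above the untreated ones. With IL-4 it was 4.05 ± 0.266, 3.96 ± 0.261 and 4.23 ± 0.393 at 0.5, 1 and 2 h, below the untreated samples in every sample, and 6.61 ± 0.77 at 4 h, where 5.74 to 7.20 overlapped the untreated 5.44 to 6.03. The rank of the 2 receptors did not depend on length, since per kb of genomic span Tnfrsf1b still exceeded Tnfrsf1a by 2.12 times in untreated cells and 9.27 times at 1 h of LPS, and per kb of cDNA by 2.51 and 11 times.

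**Figure D4:**
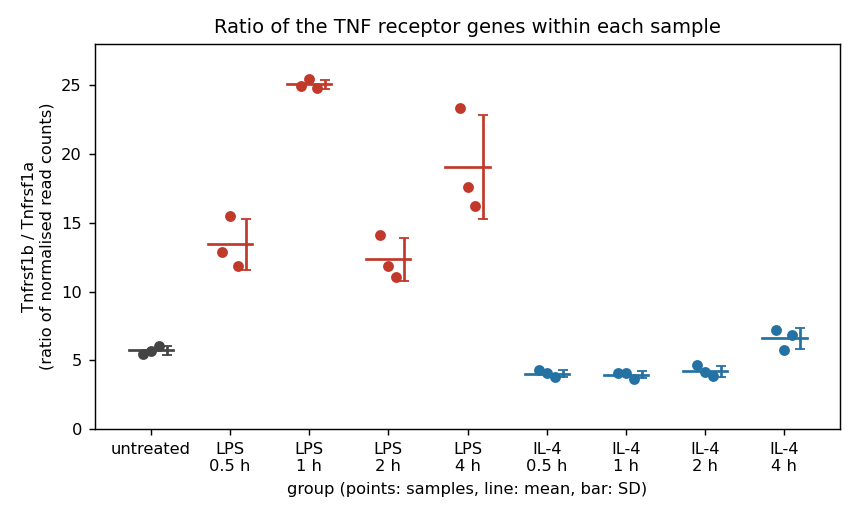
Ratio of Tnfrsf1b to Tnfrsf1a normalised read counts in each sample (points) by group, with the mean (line) and SD (bar, n = 3). Untreated samples lie between 5.44 and 6.03, the LPS samples at 1 h between 24.8 and 25.4, and the IL-4 samples at 0.5 to 2 h between 3.66 and 4.64.

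Fas encodes the death receptor CD95. It lies at chr19:34290659-34327770 on the plus strand and overlaps no other gene. Untreated cells held 82, 57 and 62. LPS samples held 398, 457 and 322 at 0.5 h, then 840, 976 and 1214 at 1 h. They held 507, 690 and 721 at 2 h, then 646, 661 and 700 at 4 h, each above every untreated sample. The peak at 1 h stood apart from the other times, with a log2FC of 3.89 ± 0.18 (adjusted p = 8.61e-11) against 2.53 ± 0.18 at 0.5 h, 3.24 ± 0.18 at 2 h and 3.32 ± 0.18 at 4 h. The rise from 0.5 to 1 h was 1.36 (adjusted p = 1.75e-05). The fall from 1 to 2 h, log2FC -0.66, passed as well (0.0075) but was lost without replicate 2 (0.0542) or 3 (0.0613), and the samples at 2 and 4 h overlapped (0.807). IL-4 samples ranged from 52 to 102. At 1 h all 3 (102, 92 and 95) lay above the untreated ones, with a log2FC of 0.53 ± 0.20 that did not pass (adjusted p = 0.0815) unless replicate 1 was left out (0.64, 0.0159). The gene of its ligand, Fasl, held at most 1 in any sample.

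The order of the 8 genes by level can be read only per length, and whether the authors' counts include introns is not stated, so both lengths were used. In untreated cells Tnfrsf1b led on both, at 125 normalised read counts per kb of cDNA and 17.8 per kb of genomic span, followed by Tnfrsf1a at 50 and 8.44. Neither overlapped its neighbour. On the cDNA scale Fas (37.2) and Tnfsf12 (30.3) came next with overlapping samples, then Tnfsf9 (7.59) and Tnf (4.23), which also overlapped, and last Tnfsf10 (1.42) and Tnfsf14 (0.892), again overlapping. On the genomic scale Fas, whose cDNA is 4.85% of its span, dropped behind Tnfsf12, Tnfsf9 and Tnf to 1.81, overlapping Tnf. At 0.5 h of LPS Tnfsf9 and Tnf held the first 2 places on both scales, at 2171 and 1298 per kb of cDNA, with no overlap between them or with Tnfrsf1b at 482. Reads of Tnfsf9 and the overlapping Gm11110 cannot be told apart, so the level of Tnfsf9 is uncertain. By 4 h the leader depended on the scale, being Tnfrsf1b per kb of cDNA (1323 against 676 for Tnf) and Tnf per kb of span (423 against 188).

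The stimuli were also compared directly at each time, in a fit of all 27 samples. At 0.5 h, 5 members were higher with LPS than with IL-4 (18% of tested genes were) and 1 was lower (35.8%). At 1 h 6 were higher (24%) and 1 lower (40.5%), and at 2 and 4 h 6 were higher (26.4% and 26.1%) and 2 lower (42.3% and 41.9%). Tnf, Tnfsf9, Tnfsf10 and Tnfsf14 reached the filter only through LPS samples, so they had to be higher there at some time. The counts of higher members can therefore not be read against these shares as an enrichment. Tnf, Tnfsf9, Tnfrsf1a, Tnfrsf1b and Fas were higher with LPS at all 4 times. Their log2 differences, LPS minus IL-4, ran from 7.70 to 9.28 for Tnf, 6.39 to 8.99 for Tnfsf9, 0.65 to 1.87 for Tnfrsf1a, 2.37 to 3.50 for Tnfrsf1b and 2.39 to 3.45 for Fas. With samples scaled to equal sums, Tnfrsf1a at 0.5 h was not called (0.26, adjusted p = 0.0625). Tnfsf10 joined them from 2 h (5.57 and 6.88), and Tnfsf12 was lower with LPS throughout, from -1.07 at 1 h to -3.38 at 4 h. Its calls at 0.5 and 1 h were lost without replicate 3 (adjusted p = 0.0829 and 0.0607). Tnfsf14 changed sides, as given above, and its lower value at 2 h (-0.86, adjusted p = 0.0434) was lost without replicate 2 or 3 (0.21 and 0.388).

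Successive times were compared within each course. In the LPS course 2 members rose (25.1% of tested genes did) and 1 fell (24.6%) from 0.5 to 1 h. From 1 to 2 h 2 rose (21.5%) and 4 fell (21.8%), and from 2 to 4 h 2 rose (11.4%) and 2 fell (11.5%). Both receptors and ligands rose, while Fas was the only receptor among the falls. Tnfrsf1b and Fas rose in the first step while Tnfsf9 fell, and in the second Tnfsf10 and Tnfrsf1a rose while Tnfsf9, Tnfsf12, Tnfsf14 and Fas fell. In the third step Tnfsf10 and Tnfrsf1b rose and Tnfsf9 and Tnfsf12 fell. The falls of Tnfsf12, log2FC -1.39 from 1 to 2 h (adjusted p = 0.0148) and -1.36 from 2 to 4 h (0.0306), were lost without replicate 1 (0.113) and without replicate 2 or 3 (0.177 and 0.306). In the IL-4 course no member passed from 0.5 to 1 h or from 1 to 2 h in limma, where 7.82% and 9.4% of tested genes did. At an unadjusted p under 0.05 there were 1 (Tnfsf14) and 0.

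The receptors that the member ligands bind were set beside them, chosen by what they bind and with their values already known. Tnfrsf9, which encodes 4-1BB, the receptor of the Tnfsf9 product, was at 0 in all untreated and all IL-4 samples. It thus reached the filter only through LPS samples, which favours calls of higher there. After LPS it held 2, 1 and 0 at 0.5 h, then 5, 7 and 9 at 1 h. It held 24, 42 and 56 at 2 h, which is at least 13.6-fold higher than untreated (adjusted p = 2.32e-08), then 6, 6 and 4 at 4 h. The receptor gene was thus highest at 2 h, when Tnfsf9 had dropped to 28.1% of its peak. Tnfrsf14, which encodes the LIGHT receptor HVEM, held 185, 197 and 233 in untreated cells. It first fell, to 93, 139 and 128 at 0.5 h of LPS (log2FC -0.78 ± 0.21, adjusted p = 0.00616) and 109, 165 and 150 at 1 h (-0.55 ± 0.21, 0.0355), the times at which Tnfsf14 was raised. It then rose to 483, 790 and 696 at 2 h (1.65 ± 0.21, 6.22e-06) and to 1188, 1732 and 1564 at 4 h (2.85 ± 0.21, 1.25e-08), when Tnfsf14 itself was at 1, 0 and 1. Ltbr, for the other LIGHT receptor, also passed the LPS F test (adjusted p = 0.0026). It held 33, 25 and 28 in untreated cells and was lower at 0.5 h of LPS, at 19, 20 and 18 (-0.56 ± 0.22, 0.0424), while its later LPS values of 29 to 50 did not pass.

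Tnfrsf10b, the mouse TRAIL death receptor gene, held 6, 14 and 9 in untreated cells and between 7 and 21 after LPS, and its LPS course did not pass the F test (adjusted p = 0.0854) while Tnfsf10 rose. At 1 h alone its 20, 17 and 20 gave a log2FC of 0.97 ± 0.37 (adjusted p = 0.0307). Tnfrsf11b, which encodes osteoprotegerin, a soluble decoy for TRAIL and RANKL, passed in neither course (adjusted p = 0.287 and 0.216). Its highest value in all 9 groups was in replicate 1, the replicate with more Col1a1 and Col1a2, for example 35, 7 and 7 at 0.5 h of IL-4. Tnfrsf22 and Tnfrsf23, mouse decoy receptor genes for TRAIL, did pass the LPS F test (adjusted p = 0.000377 and 2.3e-06). Tnfrsf22 rose from a mean of 316 to 542 at 2 h of LPS. Tnfrsf23, which overlaps another annotated gene, fell from 15.7 to 0.667 at 4 h, at least 5.22-fold lower. Over the IL-4 course Tnfrsf23 passed (0.0498) and Tnfrsf22 did not (0.134). Tnfrsf12a, for the TWEAK receptor Fn14, rose from 6, 2 and 3 to 18, 13 and 10 at 1 h of LPS (log2FC 1.71 ± 0.44, adjusted p = 0.00346), when Tnfsf12 was below its untreated level. Tnfrsf12a reached the filter only through LPS samples, which favours calls of higher there. Its highest value in untreated cells and at each LPS time was in replicate 1.

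Other genes of the pathway were read from 3 lists, written from general knowledge but with earlier results of these data known. Of 13 other ligand genes, 6 were expressed enough to be tested, and the remaining 7, Lta, Ltb, Fasl, Cd40lg, Cd70, Tnfsf11 and Tnfsf18, held at most 5 in any sample. The LPS F test passed for 5 of the 6 (87.6% of all tested genes passed), of which 2 were higher and 3 lower at their largest change. At 2 and 4 h 3 of the 6 were called higher, where 26.9% and 25.9% of all tested genes were. At 2 h 2 were called lower and at 4 h 1, where 39% and 37.6% of all tested genes were. Tnfsf8, encoding CD30L and chosen after its values were seen, makes the difference to the counts at the largest change. It fell from 7, 10 and 10 to 1, 0 and 2 at 0.5 h (adjusted p = 0.000109) and then stood at 20, 30 and 46 at 2 h (log2FC 1.66 ± 0.40, 0.0019) and 27, 27 and 22 at 4 h (1.41 ± 0.40, 0.00628). Tnfsf4, Tnfsf13b and Tnfsf15 reached the filter only with their LPS samples, which favours calls of higher, so no median over the 6 is given for LPS. Tnfsf15, encoding TL1A, went from 0, 0 and 1 to 356, 283 and 306 at 2 h, at least 105-fold higher, but lies wholly under the non-coding gene Gm42294 on the other strand, which had nearly the same values (a mean of 329 at 2 h). Tnfsf4, encoding OX40L, peaked sharply at 1 h, from 0, 1 and 0 to 87, 88 and 102, at least 30.8-fold higher, and was back at 11, 16 and 20 at 2 h. After IL-4 1 of the 6 passed, Tnfsf8, where 40.3% of all tested genes did, and the medians lay between -0.33 and -0.01 (between -0.29 and 0.10 with genes at their bound), beside -0.02 to 0.02 over all tested genes.

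Of 25 other receptor genes 16 were tested, and the other 9 held at most 10 in any sample. The LPS F test passed for 14, close to the 87.6% of all tested genes that passed, with 7 higher and 7 lower at their largest change. Cd40, a costimulatory receptor of antigen-presenting cells, rose from 44, 27 and 43 to 5481, 5220 and 4948 at 2 h (log2FC 7.09 ± 0.20, adjusted p = 2.06e-13). Tnfrsf8, encoding CD30 and lying 20261 bases from Tnfrsf1b, went from 2, 0 and 0 to 88, 114 and 93 at 4 h, at least 32.8-fold higher. Tnfrsf11a, the gene of the RANKL receptor RANK, first dropped from 497, 492 and 527 to 142, 167 and 223 at 0.5 h and then rose to 1918, 2333 and 2339 at 1 h. Tnfrsf21, a death receptor gene also called DR6, fell from 149, 128 and 127 to 11, 14 and 11 at 2 h (log2FC -3.39 ± 0.23, adjusted p = 3.52e-09). The median log2FC over the 16, of which 3 (Tnfrsf8, Tnfrsf9 and Tnfrsf12a) passed the filter only through LPS samples, was -0.51, 0.58, 0.48 and 0.26 at the 4 LPS times, beside -0.24 to -0.30 over all tested genes.

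IL-4 changed 6 of the 16 receptor genes by the F test (40.3% of all tested genes), 3 higher and 3 lower. Cd40 rose here too, to 369, 316 and 314 at 2 h (log2FC 3.13 ± 0.25, adjusted p = 7.01e-07), and LPS exceeded IL-4 at 2 h by 3.97 on the log2 scale (adjusted p = 2.03e-13). Tnfrsf11a fell to 212, 156 and 196 at 4 h (-1.43 ± 0.18, 4.66e-05) and Tnfrsf14 to 94, 102 and 76 at 1 h (-1.17 ± 0.16, 0.000137). Tnfrsf11a was therefore above untreated at 4 h of LPS, with 1117, 1223 and 1020, and below it at 4 h of IL-4 (log2 difference 2.58, adjusted p = 3.26e-12). The list medians at the 4 IL-4 times were at most 0.19, beside 0.02 or less over all tested genes.

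All 32 genes of a list of adaptors, kinases, inhibitors and shedding enzymes of TNF signalling were tested. The LPS F test passed for 30 (87.6% of all tested genes passed), with 19 higher and 11 lower at their largest change. The list medians were 0.23, 1.15, 0.74 and 0.40, beside -0.24 to -0.30 over all tested genes, and 1 of the 32, Traf1, passed the filter only through LPS samples. The largest rises included feedback inhibitors of NF-κB. Tnfaip3, encoding the deubiquitinase A20, went from 28, 20 and 15 to 4890, 4708 and 4474 at 0.5 h (log2FC 7.78 ± 0.20, adjusted p = 1.67e-13). Nfkbia, encoding IκBα, went from 49, 55 and 55 to 1490, 2236 and 2056 at 2 h (5.14 ± 0.18, 2.53e-12), and Tnip1, whose product binds A20, from 211, 184 and 189 to 4440, 3824 and 3676 at 1 h (4.34 ± 0.12, 3.66e-13). The adaptor gene Traf1 rose from 2, 7 and 6 to 1964, 1945 and 1659 at 4 h (8.39 ± 0.26, 6.85e-13), with 52.3% of its span under Gm52552 on the other strand, which rose too. Mlkl, for the executor of necroptosis, followed late, from 27, 46 and 41 to 531, 582 and 574 at 4 h (3.89 ± 0.20, 1.14e-10).

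After IL-4 15 of these 32 genes passed, where 40.3% of all tested genes did, with 7 higher and 8 lower. The list medians lay between 0.01 and 0.07, beside -0.02 to 0.02 over all tested genes. Traf5, an adaptor gene, rose from 124, 146 and 152 to 471, 555 and 546 at 2 h (log2FC 1.89 ± 0.13, adjusted p = 1.25e-07), whereas LPS samples at 0.5 h held 34, 27 and 28. Map3k5, encoding the kinase ASK1, fell to 214, 224 and 228 at 4 h from 824, 935 and 916 (-2.0 ± 0.09, 2.82e-09). With LPS it rose to 8768, 8354 and 8342 at 1 h, but at 4 h it too lay below untreated, at 432, 315 and 293. Otulin, a deubiquitinase gene for linear chains, rose to 425, 383 and 342 at 0.5 h from 187, 166 and 158 (1.16 ± 0.11, 6.6e-06). Traf6 (1.02 ± 0.18 at 0.5 h, 0.00114) and Tnfaip3 (1.75 ± 0.42 at 0.5 h, 0.0112) also passed. Both were lost without replicate 2 (0.0664 and 0.161), and Tnfaip3 without replicate 3 too (0.105).

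**Figure D5:**
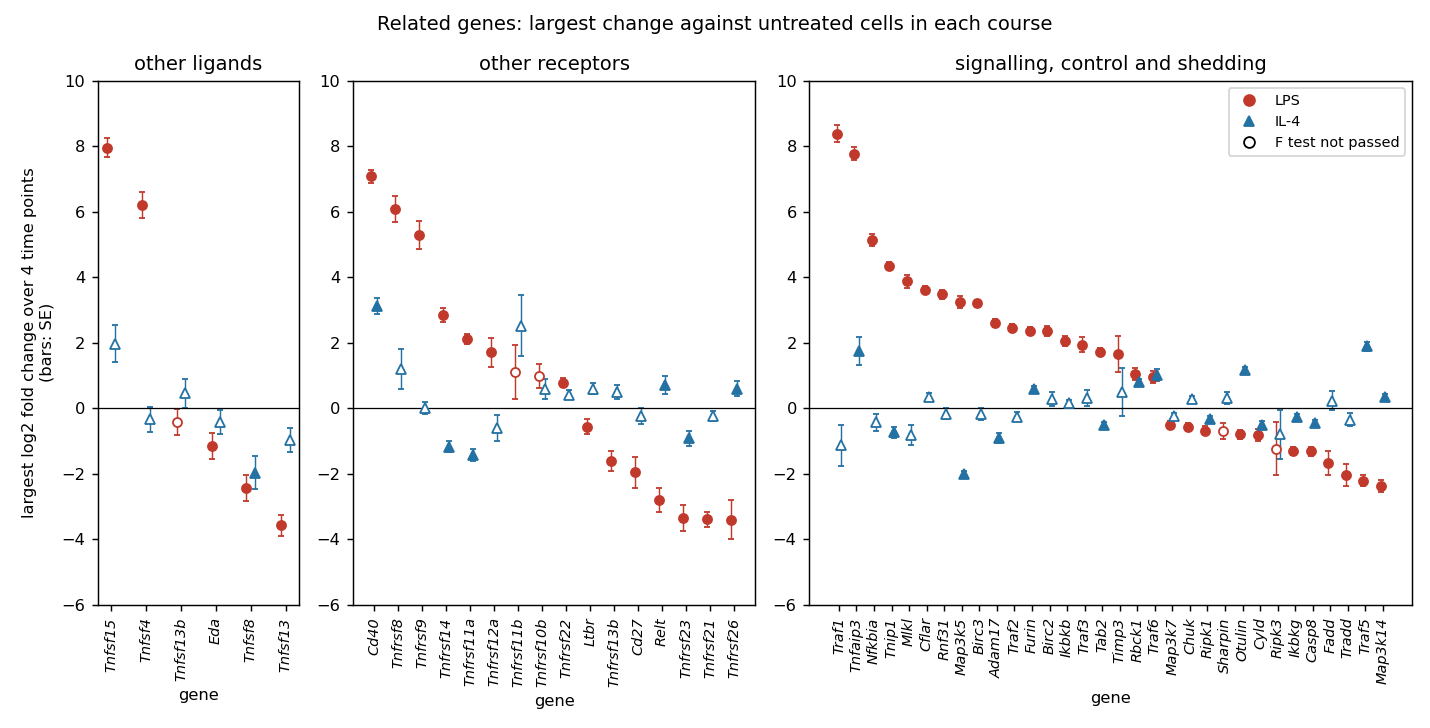
Largest log2 fold change against untreated cells over the 4 times (bars, SE) of every tested gene in the 3 lists of related genes, for LPS (red circles) and IL-4 (blue triangles), with open symbols where the F test over the course did not pass. Under LPS Traf1, Tnfsf15, Tnfaip3 and Cd40 stand at or above 7, and under IL-4 Cd40 is the highest called gene at 3.13.

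The genes whose 9 group means followed each member most closely were found by Pearson's r over all tested genes, as a description over groups that share stimulus and scaling. For Tnf they were Vcam1, Gm52290 and Pik3r5 (r = 0.997 each), with 30 genes at 0.99 or more, Tnfsf9 among the members at 0.992. Tnfsf9 was closest to Mapkapk2 (0.998), its overlapping partner Gm11110 (0.996) and Icosl (0.995). The late Tnfsf10 was closest to Trim30d, Gm16318 and Nlgn2 (0.996 for the last), with 14 genes at 0.99 or more. Tnfrsf1a was closest to Ube2l6 (0.995), Tnfrsf1b to Ccl5 (0.992) and Fas to Ap2b1 (0.992). The falling Tnfsf12 was closest to Hmces (0.991), and Tnfsf14 reached no more than 0.962, with Sema6d.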

How the data were processed

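Chromatin-associated RNA of 27 BMDM samples was turned into libraries by the authors (Smart-seq2 chemistry, random hexamer priming) and sequenced single-end. Per the labels and the study's methods, reads were aligned with TopHat2 2.1.1 to mm10, multi-mapping and blacklisted reads were removed with bedtools 2.29.2, and reads were counted per gene on RefSeq GRCm38.p6. The authors then scaled these counts on invariant genes and rounded them, and the deposited normalised read counts were handled here as a score, which fits no count model. Whether introns or strand entered the counting is not given in the sources used here. Scaling on invariant genes sets the zero of every fold change, and the sums rose with LPS.

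The 8 genes and the 3 lists were chosen with earlier results of these data known. Genes with at least 10 in 3 or more samples were tested, 13901 genes holding 99.6% of the summed values. The fits used limma 3.58.1 (R 4.3.3) on log2(value + 1) (mean-variance trend, Benjamini-Hochberg over all tested genes, threshold 0.05). Each course was fitted with its 12 stimulated and 3 untreated samples, and LPS against IL-4 in a fit of all 27. The script was tested on simulated data. All 8 members were named. From each list the text names, per stimulus, up to 5 genes with the largest change among those passing the F test with a mean of at least 50 in the higher group, and in addition the receptor partners of the ligands and the genes near or overlapping a member, chosen with their values seen. Bounds were computed against 3 normalised read counts where every library of a group lay at or under it. The study's own impulse model was not run. All tests of single contrasts were two-sided. Alternatives were other pseudocounts, filters and scalings, a replicate block, each replicate left out, and replicates 2 and 3 averaged.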

Additional observations from a re-analysis of the deposited data

Results flagged for a closer look

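Tnfsf9 and Tnfrsf1b moved in opposite directions with the 2 stimuli, and the direct comparison of LPS with IL-4 passed at each of these times. That comparison could pass on the LPS rise alone, so it is no evidence for a fall with IL-4. The IL-4 calls of Tnfsf9, and those of Tnfrsf1b at 0.5 h and 1 h, were each lost without some replicate, as given above. Tnfsf9 also reached the filter only through LPS samples. For Tnfsf9, LPS minus IL-4 was 8.18 on the log2 scale at 1 h, 7.78 at 2 h and 6.39 at 4 h. All LPS samples of Tnfsf9 lay above and all IL-4 samples below the untreated ones, but its IL-4 samples held 1 to 5 normalised read counts against 6 to 11 in untreated cells. For Tnfrsf1b the difference was 2.37 at 0.5 h, 3.50 at 1 h and 3.42 at 2 h, with IL-4 samples at 401 to 504 against 600 to 631 in untreated cells. Both courses share the untreated samples. No member's group could be searched for a sample far from the others, since each held 3 samples.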

How the results depend on the processing

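Of 144 member contrasts, 78 were called. The LPS calls of Tnf, Tnfsf9, Tnfrsf1b and Fas against untreated, and those of Tnfsf10 at 2 and 4 h, were kept under every alternative run. Counts of members called after IL-4 were less stable. For the course it was 1 in place of 2 with no filter, and with replicates 2 and 3 averaged. At 0.5 h it was 1 in place of 2 with no filter, with a filter at a mean of 50, and averaged. At 1 h it was 1 in place of 2 with no filter and averaged. At 4 h it was 0 in place of 1 with a pseudocount of 0.5, with no filter and averaged. The LPS step from 2 to 4 h had 0 in place of 4 members when averaged. Leaving out 1 replicate gave 1 to 3 members for the IL-4 course, 0 to 2, 0 to 3, 1 to 2 and 0 at its 4 times in order, 3 to 5 for the LPS step from 0.5 to 1 h, 0 to 5 for that from 2 to 4 h, and 0 to 1 for the IL-4 step from 2 to 4 h. Fewer samples or genes explain part of this by construction, and otherwise the cause was not tested. Values that changed sign were all uncalled. With equal sums, Tnfsf10 was -0.38 at 0.5 h and -0.34 at 1 h of LPS and Tnfrsf1a -0.065 at 0.5 h of IL-4. Averaged, Tnfsf10 was -0.050 at 0.5 h of LPS, Fas -0.027 at 2 h of IL-4 and the Tnf step from 0.5 to 1 h of IL-4 -0.23, the last also -0.051 with a pseudocount of 8. Leaving out 1 replicate, the ranges that crossed 0 were -0.11 to 0.28 for Tnfsf10 at 0.5 h of LPS and -0.17 to 0.25 for its step from 0.5 to 1 h, -0.052 to 0.15 for the Fas LPS step from 2 to 4 h, and for IL-4 -0.024 to 0.14, -0.11 to 0.0070 and -0.12 to 0.099 for Tnfrsf1a at 0.5, 2 and 4 h and -0.024 to 0.092 for its step from 2 to 4 h, -0.047 to 0.44 for Fas at 2 h, -1.45 to 0.10 for Tnf at 4 h, -1.0 to 0.82 and -0.82 to 0.13 for its first 2 steps, -0.052 to 0.099 for the first step of Tnfrsf1b, -0.39 to 0.33 for Tnfsf10 from 1 to 2 h and -0.13 to 0.66 for Tnfsf14 from 2 to 4 h. Replicate numbers were shared between groups, but a number did not pair samples by the rule used. Of 108 same-number pairs 106 deviated together with r over 0.1, the lowest at 0.0897. Of 27 samples 19 correlated best with their own number. Replicate 1 stood apart, with r of 0.351 to 0.713 among its own samples and of -0.583 to -0.159 with replicates 2 and 3. Replicates 2 and 3 were not separated from each other, with r of 0.0474 to 0.39 between them. With a replicate block, 2 members in place of 1 were called at 4 h of IL-4, Tnfsf12 passing at 2 and 4 h (adjusted p = 0.0434 and 0.0114) and the Tnf falls from 0.5 to 1 h and 2 to 4 h of LPS (0.0493 and 0.0389), and no call was lost. Scaled values do not show depth, and members under about 10 normalised read counts (Tnfsf14, and Tnf, Tnfsf9 and Tnfsf10 without LPS) are limited by it.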
